A study of Mus musculus with 40 samples.

Results

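Colonic mucosa of mice that carried a single bacterial strain, Escherichia coli CEC, was compared with colonic mucosa of conventional mice, which carry a complex microbiota. The comparison takes 20 of the 40 samples of the study, 10 labelled E. coli CEC and mono-associated, with 21 days of colonisation, and 10 labelled conventional, for which no colonisation time is given. The other 20 samples are 10 germ-free and 10 mono-associated with E. coli Nissle, the latter also with 21 days of colonisation. They enter the fit below for its estimate of spread and are shown beside the results. All samples are total RNA of colonic mucosa. The sources used here do not give mouse strain, sex or age, and the labels name the strain only as CEC. Strain identity, microbial complexity and the length of colonisation differ together between both groups and cannot be told apart. The series' design text speaks of RNA pooled over mice before the measurement, yet the samples are listed one by one, so whether a sample is a mouse is unsettled. The p-values cover the variation among the listed samples, part or all of which may be technical.

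RNA was measured by quantitative PCR on a custom TaqMan OpenArray panel. In this assay a fluorescent probe reports how many cycles of amplification (Ct) are needed to cross a threshold, and a lower Ct means more template. The colonic mucosa holds an epithelium of absorptive and goblet cells above connective tissue with immune cells, and it is in lasting contact with gut bacteria. Germ-free mice that receive a single strain allow the response to that strain to be read without other microbes, while conventional mice show the tissue under a full community. In a bulk mucosal sample, fewer cells of a type and less RNA per cell cannot be told apart.

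The panel holds 224 assays, of which 214 were measured in at least 5 samples of each group and are described here. Of the 10 that were not, 3 were undetermined in all 20 samples, and the other 7 had at most 12 measured wells of 20. The table identifies assays by TaqMan ID and no table used here links an ID to a gene, so no gene, pathway or marker is named. The 2 higher and the 2 lower assays with the largest moderated t are given by ID, and the rest by counts and values. For the same reason the mucosal origin of the samples could not be checked against marker genes.

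Relative expression is the median Ct of a sample, taken over the 203 assays without any undetermined well in the study, minus the Ct of the assay. It is a log2 scale on which 1 unit is a doubling if each cycle doubles the product. The median itself differed between the groups. It ran from 21.86 to 24.27 cycles in CEC samples, with a middle value of 22.33, and from 21.62 to 22.38 in conventional samples, with a middle value of 21.93. CEC replicates 3, 6 and 8 stood apart at 23.61, 23.79 and 24.27, replicate 9 lay just above the conventional range at 22.48, and the other 6 CEC samples lay within it. The means were 22.72 ± 0.84 and 21.96 ± 0.29 (SD, n = 10 each), a difference of 0.76 cycles (two-sided permutation test, p = 0.00582). Without those 3 samples, which were set apart on this very value, the difference was 0.26 cycles (two-sided permutation test, p = 0.0546). A higher median Ct comes from less template or from lower expression of most of the panel, and these cannot be told apart here.

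**Figure D1:**
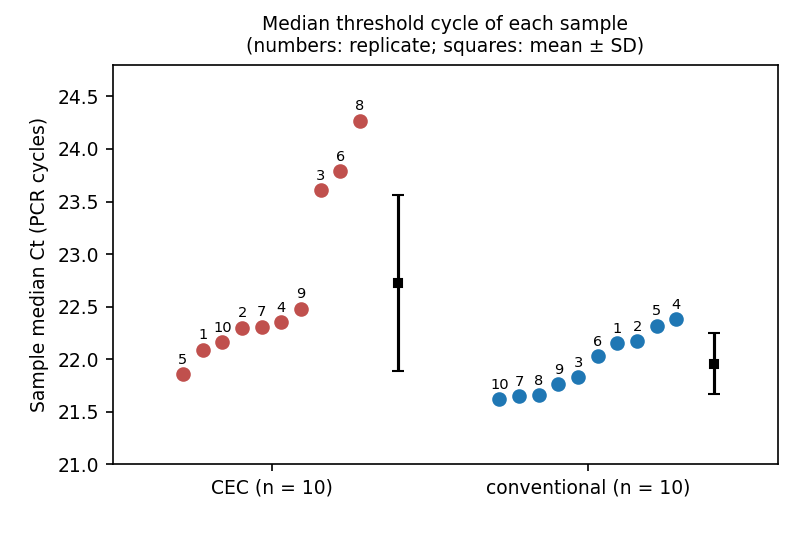
Median Ct in PCR cycles of each CEC and conventional sample, ordered within its group, with the replicate number above each point and the mean ± SD as a square with bars. CEC replicates 3, 6 and 8 lie above 23.5 cycles, and every conventional sample lies at or below 22.38.

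Relative expression differed between CEC and conventional mucosa in 55 of the 214 assays, which is 25.7% (limma, Benjamini-Hochberg adjusted p under 0.05). In CEC mucosa 39 assays were higher (18.2% of those tested) and 16 were lower (7.48%). Most changes were modest. The higher assays had a median fold of 2.07 and ran from 1.27-fold to 221-fold, with 21 above 2-fold and 3 above 4-fold. The lower assays had a median fold of 2.23 and ran from 1.33-fold to 50.4-fold, with 8 above 2-fold and 5 above 4-fold. All 5 of the latter were also lower by more than 8-fold, so the lower assays split into a group of small changes and a group of large ones. Across all 214 assays the median log2 difference was 0.21, with quartiles at -0.17 and 0.53, and 137 assays (64%) had the higher mean in CEC samples. Without CEC replicate 6 the number of changed assays was 75, of which 52 were higher and 23 lower, and 53 of the 55 were among them. Without CEC replicates 6 and 8 it was 72, with 50 of the 55 among them. Without CEC replicates 3, 6 and 8 it was 62, with 44 of the 55 among them (33 of the 39 higher and 11 of the 16 lower). Sample quality weights raised the number to 106, 72 higher and 34 lower.

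**Figure D2:**
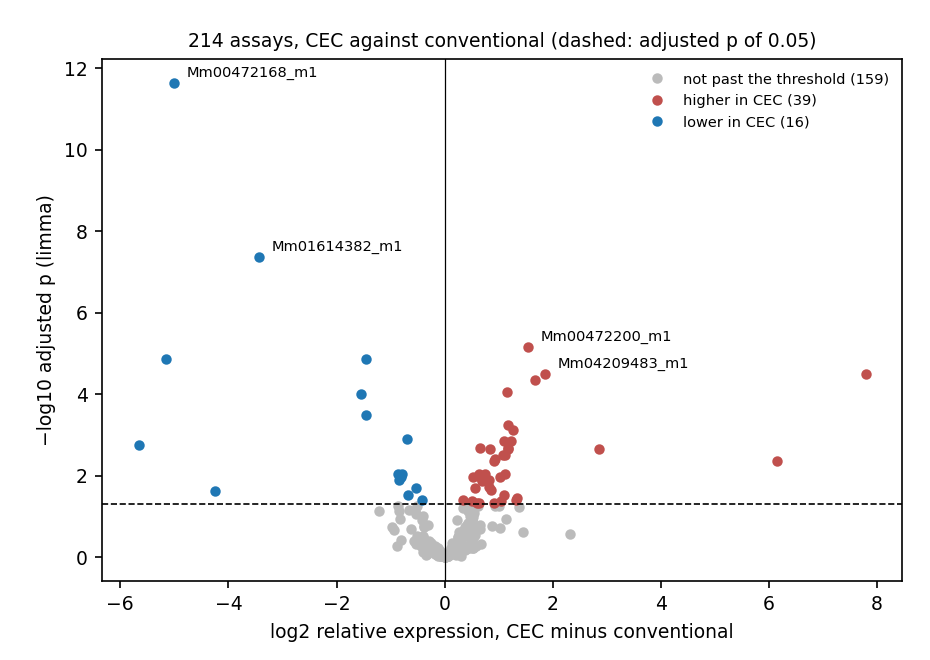
Log2 relative expression in CEC minus conventional samples (x) against the negative log10 of the limma adjusted p (y) for 214 assays. The 39 higher assays form a dense group of small changes with 2 far to the right, and Mm00472168_m1 has the smallest adjusted p, 2.34e-12.

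The number of higher and of lower assays depended on what the samples were scaled to, although the 16 lower assays stayed lower under each of the 5 scalings. With raw Ct and no normalization 58 assays changed, 6 higher and 52 lower. Scaling to the 10 most stable assays gave 39 changed assays, 12 higher and 27 lower, and with the mean Ct 56 changed, 30 higher and 26 lower. The median log2 difference over all assays moved with this choice, from 0.21 with the median Ct to 0.10 with the mean, -0.08 with the stable assays and -0.53 with raw Ct. No assay was significantly higher under a scaling and significantly lower under another. Of the 39 higher assays, 11 had a lower mean signal in CEC samples on raw Ct. The 5 scalings shared 22 changed assays in the same direction, and these held all 16 lower assays but 6 of the 39 higher ones. The 6 ran from 2.92-fold to 221-fold higher. Against the median Ct, the mean, the stable assays and raw Ct all moved CEC values down relative to conventional ones. The median over assays measured in every sample hardly moved them, with a median log2 difference of 0.22. Lower assays could thus hardly be lost while higher ones could, so the unequal shares do not rank the lower assays as firmer.

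**Figure D3:**
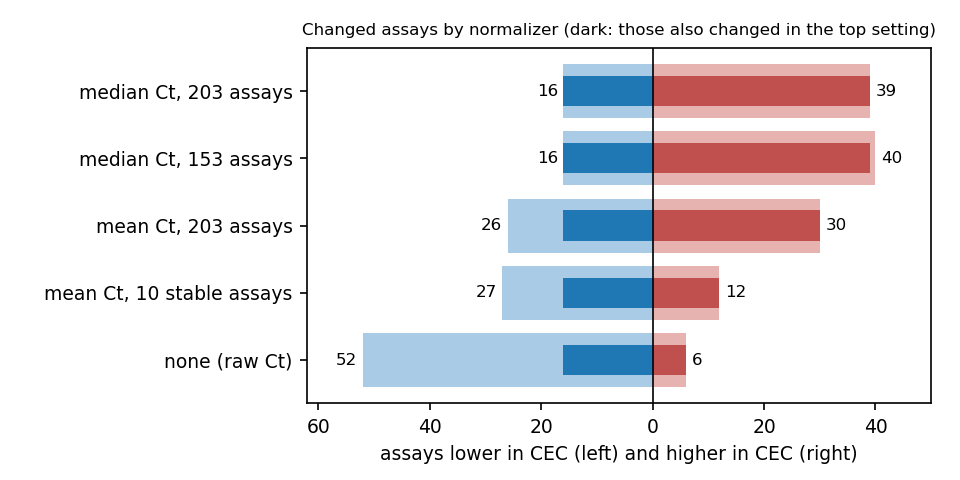
Number of assays significantly lower (left) and higher (right) in CEC samples under 5 scalings of Ct, with the assays that also changed under the top scaling in dark. The dark blue bar is 16 in each row, and the dark red bar falls from 39 to 6.

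The clearest difference was in Mm00472168_m1, which was far lower in CEC mucosa. Its relative expression ran from -1.84 to 2.25 log2 units in CEC samples, with a median of 0.44, and from 2.40 to 6.44 in conventional samples, with a median of 5.58. Every CEC sample lay below every conventional sample. The closest were CEC replicate 10 at 2.25 and conventional replicate 5 at 2.40, while the other 9 conventional samples lay at 5.05 or above. The means were 0.41 ± 1.09 and 5.41 ± 1.14 (SD, n = 10 each). Their difference was -5.00 ± 0.41 (standard error), or 31.9-fold lower (limma, adjusted p = 2.34e-12, or 2.29e-07 in a fit of both groups alone). On raw Ct it was 54.2-fold lower, but the ranges then met, with CEC replicate 10 at 19.91 cycles and conventional replicate 5 at 19.92. Germ-free samples lay between both groups, from 1.63 to 4.28 with a mean of 2.83 ± 0.71 (n = 10). Nissle samples, from -0.02 to 2.29 with a mean of 1.12 ± 0.78, lay mostly within the CEC range. The order of the means was thus CEC, Nissle, germ-free and conventional, and neighbouring groups overlapped in their ranges.

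Mm01614382_m1 was also lower in CEC mucosa. It ran from -0.51 to 4.80 in CEC samples, with a median of 0.45, and from 3.26 to 5.07 in conventional samples, with a median of 4.18. The overlap came from CEC replicate 6, at 4.80. The other 9 CEC samples lay at or below 1.20, below every conventional sample. The means were 0.82 ± 1.51 and 4.25 ± 0.53 (SD, n = 10 each). Their difference was -3.44 ± 0.41 (standard error), or 10.8-fold lower (limma, adjusted p = 4.28e-08, or 3.99e-05 in a fit of both groups alone). It was 18.4-fold lower on raw Ct, and the log2 difference was -3.88 without CEC replicate 6. Germ-free samples ran from 0.67 to 2.61 with a mean of 1.93 ± 0.56, below every conventional sample. Nissle samples ran from 0.71 to 3.59 with a mean of 1.63 ± 0.85, and Nissle replicate 5 at 3.59 alone reached the conventional range. Conventional mucosa thus had the highest mean for both lower assays.

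Among the higher assays, Mm00472200_m1 had the largest moderated t. It ran from 0.41 to 3.02 in CEC samples, with a median of 1.52, and from -0.48 to 0.55 in conventional samples, with a median of 0.00. CEC replicate 10 at 0.41 was the only CEC sample inside the conventional range, whose top was replicate 10 at 0.55. The means were 1.56 ± 0.71 and 0.02 ± 0.28 (SD, n = 10 each). Their difference was 1.55 ± 0.24 (standard error), or 2.92-fold higher (limma, adjusted p = 7.11e-06). On raw Ct it was 1.72-fold higher, still past the threshold (limma, adjusted p = 0.0481). Germ-free samples were close to conventional ones, from -0.72 to 0.88 with a mean of 0.19 ± 0.53. Nissle samples lay between those and CEC samples, from 0.10 to 1.59 with a mean of 0.73 ± 0.47 (9 measured samples).

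Mm04209483_m1 was 3.61-fold higher in CEC mucosa. It ran from 2.45 to 5.98 in CEC samples, with a median of 3.62, and from 1.32 to 3.05 in conventional samples, with a median of 1.65. The groups overlapped through CEC replicate 8 at 2.45 and conventional replicates 5 and 7 at 3.05 and 2.87. CEC replicate 6, at 5.98, stood above the other CEC samples, which reached 4.27. The means were 3.78 ± 0.93 and 1.93 ± 0.61 (SD, n = 10 each), and their difference was 1.85 ± 0.32 (standard error; limma, adjusted p = 3.21e-05). On raw Ct it was 2.12-fold higher (limma, adjusted p = 0.0221). Nissle samples, with a mean of 3.49 ± 0.84, covered much of the CEC range, from 2.17 to 5.04. Germ-free samples, from 2.22 to 3.42 with a mean of 2.86 ± 0.38, lay between the CEC and conventional means.

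**Figure D4:**
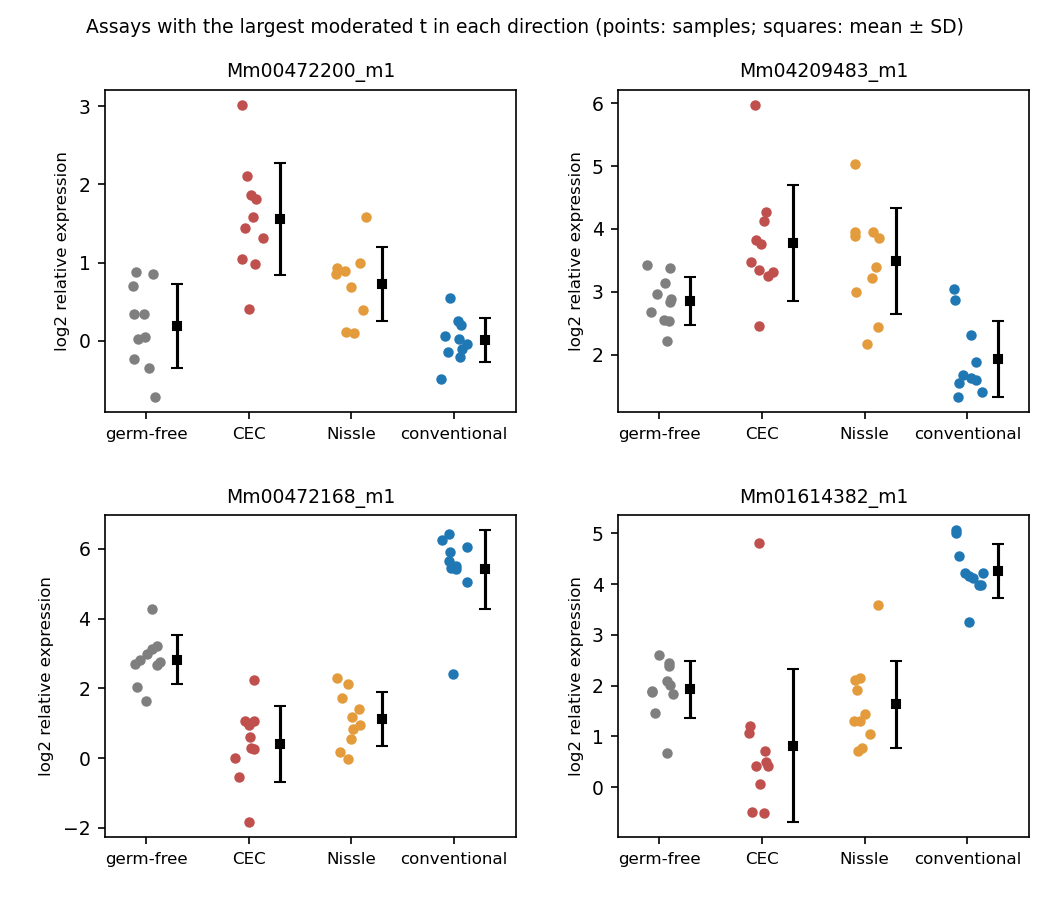
Log2 relative expression of the 2 higher (top) and 2 lower (bottom) assays with the largest moderated t in each sample of the 4 groups, with the mean ± SD as a square with bars. CEC samples lie above conventional samples on average in the top row and below them in the bottom row, and CEC replicate 6 is the top CEC point for Mm00472200_m1, Mm04209483_m1 and Mm01614382_m1.

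Beyond the 2 lower assays already given, 5 others changed by more than 8-fold, 2 higher and 3 lower. All 5 had larger adjusted p-values than those 2, although 4 of them had larger folds than either. The 2 higher ones were 221-fold and 71.1-fold higher (limma, adjusted p = 3.21e-05 and 0.0044), with SDs in CEC samples of 3.59 and 3.42 log2 units. Without CEC replicate 6 they were 124-fold and 41.2-fold higher. The second rested on 5 measured conventional samples, since the other 5 wells had been filled in. The 3 lower ones were 50.4-fold, 35.4-fold and 19-fold lower (limma, adjusted p = 0.00177, 1.37e-05 and 0.0233). These p-values use a spread pooled over all 4 groups. A fit of both groups alone kept 14 of the 16 lower assays. The 50.4-fold assay had SDs of 3.44 in CEC and 5.01 in conventional samples, and its fold was 100 without CEC replicate 8 and 84, 80.2 or 98.7 without conventional replicate 2, 3 or 4. The 19-fold assay had 5 measured CEC samples, and its fold was 11.1 or 11.7 without conventional replicate 7 or 8. For the 35.4-fold assay no single sample moved the fold by more than 1.5 times.

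Complete separation of the groups was rare. In 4 of the 214 assays (1.87%) every measured CEC sample lay on the same side of every measured conventional sample, and all 4 were among the changed assays, 3 higher and 1 lower. The lower one was Mm00472168_m1, which was not separate on raw Ct. The higher ones were the 221-fold and the 71.1-fold assay and an assay that was 2.26-fold higher, which ran from -2.62 to -1.52 in 9 CEC samples and from -3.75 to -2.84 in 10 conventional samples (limma, adjusted p = 0.000561). This last assay was not among the 22 that changed under all 5 scalings.

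The samples did not contribute alike. For each of the 55 changed assays a sample was placed on the CEC or the conventional side of the midpoint between the group means. These assays were picked on the same samples, so the shares are a description. CEC replicate 7 lay on the CEC side in 53 of 54 measured assays (98.1%), and CEC replicates 2, 3, 4 and 5 in 90.7% to 94.4%. CEC replicates 9 and 10 lay there in only 61.1% and 61.8%, and CEC replicate 8 in 73.6%. Of the conventional samples, replicate 5 stood out, with 61.1% on its own side against 79.6% to 92.7% in the other 9. Of the 3 CEC samples with a high median Ct, replicate 8 had 73.6% and replicate 6 had 80.4% on their own side, while replicate 3 had 92.6%. CEC replicates 9 and 10, with the lowest shares, had a median Ct of 22.48 and 22.16.

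**Figure D5:**
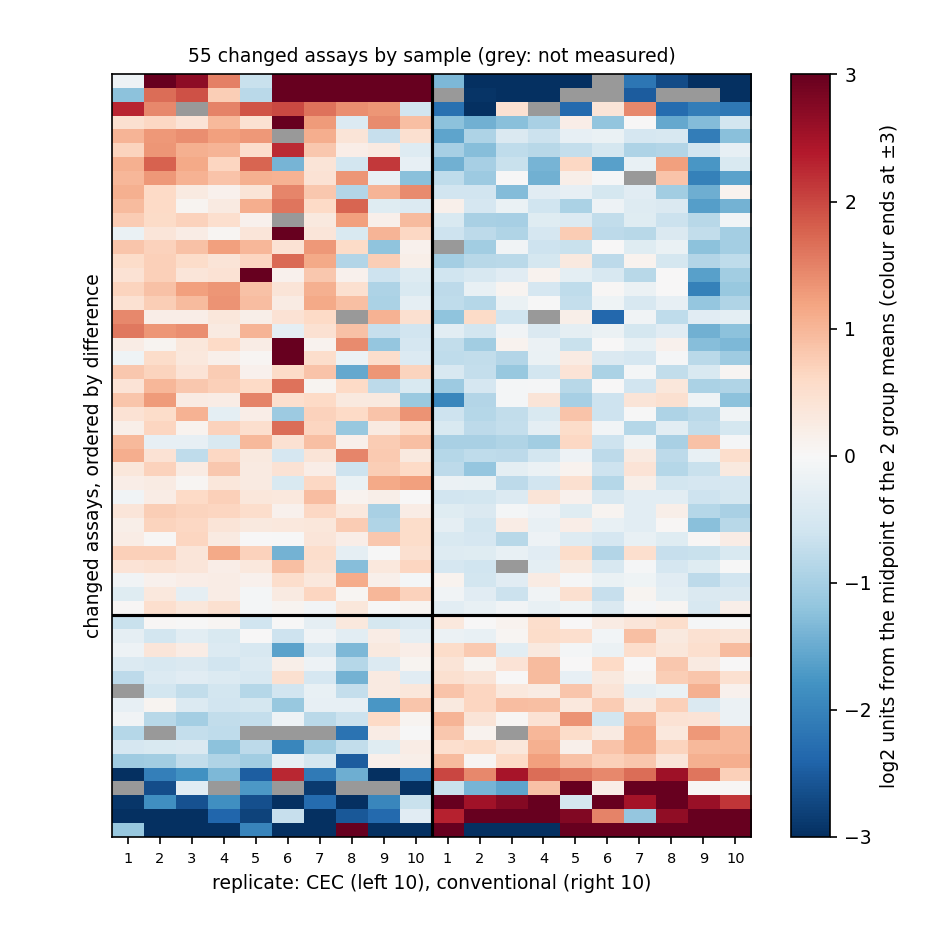
Relative expression of the 55 changed assays (rows, ordered by difference) in the 20 samples (columns), as log2 units from the midpoint of the group means, with grey for wells not measured. CEC replicate 6 holds many of the darkest cells, and CEC replicates 9 and 10 and conventional replicate 5 hold cells of the other group's colour.

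CEC samples also varied more among themselves. The SD was larger in CEC than in conventional samples for 164 of 214 assays (76.6%), with a median SD of 0.704 against 0.46 log2 units. CEC replicate 6 lay farthest from the CEC median in 68 of the 181 assays measured in all 10 CEC samples, replicate 9 in 44 and replicate 8 in 38. Without CEC replicate 6 the SD was larger in CEC for 145 assays (67.8%), without replicate 8 for 146 and without replicate 9 for 149. Without replicates 6 and 8 together it was larger for 104 (48.6%), with a median SD of 0.515. No other pair was left out. Leaving out samples far from the median of these same values lowers the SD by selection. No conventional sample was left out, although conventional replicate 5 lay farthest from the conventional median in 38 of 182 assays. The counts without CEC samples are therefore a description only. No test was made of the difference in spread. Of the 39 higher assays 31 had the larger SD in CEC samples, and of the 16 lower assays 8 did.

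Changed assays were found at all levels of signal. Among the 71 assays with the lowest mean Ct, from 14.4 to 21.4 cycles, 12 were higher and 3 lower in CEC samples. Among the 71 in the middle, up to 23.8 cycles, 14 were higher and 11 lower. Among the 72 with the highest Ct, from 24 to 29.9 cycles, 13 were higher and 2 lower. The changed share was 21.1%, 35.2% and 20.8% in these sets, against 25.7% of all 214 assays (18.2% higher and 7.48% lower). The levels were not tested against each other. The standard error of the log2 differences had a median of 0.24 in the first and second of these sets and 0.43 in the last, so a difference had to be larger to pass the test among assays with a high Ct. By assay design, 49 of 179 assays with the ID ending m1, whose probe spans an exon junction, changed (27.4%, near the 25.7% of all 214). With the ending s1 it was 2 of 18 (11.1%), and these lie within a single exon and can also amplify genomic DNA. The median log2 differences were 0.18 and 0.42. Of the 15 assays ending in g1, 3 changed, and of the 2 ending in gH, 1 did, all of them higher in CEC samples. The sets other than m1 are small, and no difference between endings was tested.

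No difference in detection passed the test. Undetermined wells numbered 111 in CEC and 92 in conventional samples, between 8 and 15 and between 6 and 11 per sample. CEC replicates 3, 6 and 8, those with a high median Ct, had 14, 15 and 15, and the other CEC samples had 8 to 11. The undetermined wells lay in 20 assays, of which 3 were undetermined in every sample. These 3 could not differ, and wells filled in before deposit were counted on neither side. CEC samples had more undetermined wells in 11 of the 20, conventional samples in 3, and the counts were equal in 6. None of the 20 differed after Benjamini-Hochberg adjustment (Fisher's exact test, two-sided, 0% called, smallest adjusted p = 0.578), and 1 had an unadjusted p under 0.05 (Fisher's exact test, p = 0.0325), with 5 of 10 CEC and 10 of 10 conventional samples measured. That assay is the 19-fold lower one, so its fold covers only the 5 CEC samples in which it was detected. With Ct above 30 counted as undetermined 38 assays were compared and 1 differed (Fisher's exact test, adjusted p = 0.0271). That cut is on raw Ct, whose sample median was 0.76 cycles higher on average in CEC samples. It left 161 CEC and 131 conventional wells as undetermined. Whether the higher Ct of CEC samples accounts for the difference was not tested.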

How the data were processed

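Raw threshold cycles of 224 TaqMan OpenArray assays in 40 samples were used. They are a score in PCR cycles, raw per the file headers, which also call the table a truncated example. Threshold settings and quality filters: not given in the sources used here. A Ct of 40 was read as undetermined and left missing (405 wells). Another 156 wells had been filled in before deposit (153 equalled their group's mean within 5e-06 cycles, and 3 carried 10 digits like most of those) and were left missing. The median Ct that scales a sample uses all 203 assays without a Ct of 40, as deposited.

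Groups and replicate numbers come from the sample titles. Assays measured in 5 or more samples per side were fitted with limma 3.58.1 in R 4.3.3 (lmFit and eBayes, 1 fit over 4 groups, contrast CEC minus conventional, Benjamini-Hochberg over 214 assays, two-sided). The fit was tested on simulated data. Medians were compared with 100000 permutation resamples and detection with Fisher's exact test (scipy 1.17.1). Plots used matplotlib 3.10.9. The rule named the 2 higher and 2 lower changed assays with the largest moderated t, since no table pairs IDs with genes; the planned gene lists, markers and reference genes were not used. Members, lists and tests were chosen with earlier results of these data known. No sample repeated another: the closest pair, conventional replicates 3 and 6, differed by a median of 0.229 log2 units against 0.584 over all pairs.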

Additional observations from a re-analysis of the deposited data

Results flagged for a closer look

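Groups of 10 samples were searched for a sample whose gap to its neighbour was over 0.466 of the group's range, in 18 sets of values. Nissle samples had 9 values for Mm00472200_m1, and a higher limit was used there. Chance alone flags about 1 in 20 independent sets, and 4 were found. The sets share samples, so that rate is only a rough guide. CEC replicate 6 stood above the other CEC samples in Mm04209483_m1, at 5.98 log2 units with a gap of 0.48 of the range, and in Mm01614382_m1, at 4.80 with a gap of 0.68. Conventional replicate 5 stood below the other conventional samples in Mm00472168_m1, at 2.40 with a gap of 0.65. Nissle replicate 5 stood above the other Nissle samples in Mm01614382_m1, at 3.59 with a gap of 0.50. The cause was not tested for any of these samples.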

How the results depend on the processing

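All 4 named assays kept their direction and stayed past the adjusted p of 0.05 in each of 55 alternatives, with log2 differences from 0.78 to 1.67 for Mm00472200_m1, from 1.09 to 2.0 for Mm04209483_m1, from -5.76 to -4.52 for Mm00472168_m1 and from -4.20 to -3.29 for Mm01614382_m1. The alternatives without a germ-free or Nissle sample could not move these differences, only their standard errors. The 4 assays were picked for a large moderated t in these same samples, so the count of 55 is a description. The highest adjusted p-values (limma) of the 4 were 0.0481, 0.0221, 6.72e-05 and 0.000444. In the fit of both groups alone, which takes its spread from these groups only, they were 0.000107, 0.00049, 2.29e-07 and 3.99e-05 (limma). The 55 changed assays became 106 with sample quality weights, between 44 (without conventional replicate 1) and 75 (without CEC replicate 6) with a sample left out, 53 in a fit of both groups alone and 54 with the replicate block added to that fit. The fit of both groups alone and the fit with the block each kept 47 of the 55 in the same direction, 33 of the 39 higher and 14 of the 16 lower. Whether the numbers pair the samples is unsettled: same-numbered samples correlated at 0.04 to 0.42 in their deviations (median 0.23), over 0.1 in 7 of 10 pairs, and 2 of 10 CEC samples correlated best with their own number. The labels name no shared litter or batch, so the fit without the block is reported. The 4 separated assays became 8 with the 10 stable assays, 1 with assays measured in all 20 samples, 10 without CEC replicates 6 and 8, 10 without CEC replicates 3, 6 and 8 (chosen after seeing the data), and 3 to 7 with a sample left out, the highest without CEC replicate 9. Leaving samples out can only narrow a range, so an assay that is still tested can gain separation this way but not lose it. The 164 assays with the larger SD in CEC samples became 104 without CEC replicates 6 and 8 and 107 without replicates 3, 6 and 8. With a sample left out they became 145 to 171. Replicates 6 and 8 often lay farthest from the CEC median in these same values, so leaving them out lowers the CEC SD by selection. The difference in median Ct was 0.59 to 0.86 cycles with a sample left out and 0.26 without CEC replicates 3, 6 and 8. With Ct above 30 as undetermined 1 assay differed in detection. A reference-gene scaling was not run. The cause of these shifts was not tested.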
